A study of Homo sapiens with 2 samples.

Results

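The glutathione S-transferases described here were 10 genes chosen by symbol, out of 43424 symbols in the deposited counts: the soluble enzymes GSTA1, GSTA4, GSTO1, GSTP1, GSTT2B and GSTZ1, the mitochondrial and peroxisomal enzyme GSTK1, and the membrane-bound enzymes MGST1, MGST2 and MGST3. They were measured in the human liver cancer cell line Hep3B. One library came from cells treated with GLE, an extract of Glehnia littoralis, a plant of the carrot family, and 1 library came from control cells given the solvent dimethyl sulfoxide (DMSO). Both were wild type per the labels and were grown in the same serum-containing medium with penicillin and streptomycin. In a viability assay the labels name a highest GLE dose of 500 µg/mL and a time of 24 h, but the sources used here do not say which dose and time the sequenced cells received. Each library was made from 500 ng of total RNA with a Lexogen kit that reads the 3′ end of polyadenylated RNA. Each group was 1 library of 1 cell line, so no difference below has a replicate check, no test between the conditions was possible, and every interval covers counting error only.

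Glutathione S-transferases join the tripeptide glutathione to electrophiles such as drugs, toxins and products of lipid peroxidation, which makes them soluble and ready for export. Hepatocytes are rich in the alpha class, while the pi class is typical of bile duct cells and of many tumours. Several of the genes are known targets of the oxidant-sensing factor NRF2. The MGST proteins belong to a separate, membrane-embedded family known as MAPEG.

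The GLE library held 3636351 counts and the DMSO library 5618328. A floor of 3 counts stood for 0.848 CPM (a gene's counts per 1000000 scaled library counts) in the GLE library and for 0.519 CPM in the DMSO library. Libraries were put on a common scale with TMM factors (trimmed mean of M-values), and a gene was called measured when both libraries together gave it at least 30 counts, which 11068 genes reached. The cells carried the transcripts of their label: all 8 hepatocyte and hepatoma markers examined were measured, among them ALB with 9574 GLE and 24988 DMSO counts, and AFP with 1490 GLE and 3389 DMSO counts. Of 6 blood and endothelial markers, CD3E, VWF and CDH5 had 0 counts in both libraries, HBB had 9 GLE and 0 DMSO counts, PTPRC had 3 GLE counts and 1 DMSO count, and PECAM1 had 1 GLE count and 36 DMSO counts. The 4 fibroblast markers COL1A1, COL1A2, DCN and LUM summed to 64 GLE and 16 DMSO counts, or 18.1 and 2.77 CPM, and their part in the results was not tested.

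Promoter sequence was taken from RefSeq on GRCh38.p14, in which 8 of the 10 members matched an entry, and MGST2 and GSTT2B did not. The 250 bases before the transcript start used in that table are printed 5′ to 3′ on the gene's own strand for 5 genes. For GSTO1 that start lies inside the gene's RefSeq span, which begins further upstream, so its window is within the span. GSTA1 and GSTA2 are shown because they are near copies whose ratios, given below, both lay close to 1, and their capitals mark the TATA box, TATAAA. GSTA4, GSTO1 and GSTP1 are shown because they were the members whose window held the core of the antioxidant response element, the site bound by NRF2, and their capitals mark that core, TGACNNNGC.
GSTA1, chr6:52803817-52804066, minus strand: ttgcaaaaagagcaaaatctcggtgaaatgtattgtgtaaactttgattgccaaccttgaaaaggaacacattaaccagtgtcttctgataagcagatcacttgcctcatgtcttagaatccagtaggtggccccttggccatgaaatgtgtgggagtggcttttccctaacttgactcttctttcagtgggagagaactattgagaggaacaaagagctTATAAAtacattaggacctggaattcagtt
GSTA2, chr6:52763476-52763725, minus strand: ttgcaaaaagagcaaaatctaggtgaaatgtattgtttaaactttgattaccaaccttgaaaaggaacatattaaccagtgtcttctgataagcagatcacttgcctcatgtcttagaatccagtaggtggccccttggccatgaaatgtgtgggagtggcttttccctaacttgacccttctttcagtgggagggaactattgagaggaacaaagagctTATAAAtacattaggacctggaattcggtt
GSTA4, chr6:52995285-52995534, minus strand: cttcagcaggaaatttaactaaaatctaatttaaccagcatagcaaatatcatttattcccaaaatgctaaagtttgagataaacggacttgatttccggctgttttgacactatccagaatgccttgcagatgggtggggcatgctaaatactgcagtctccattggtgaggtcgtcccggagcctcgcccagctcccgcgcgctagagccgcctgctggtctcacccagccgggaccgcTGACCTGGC
GSTO1, chr10:104254642-104254891, plus strand: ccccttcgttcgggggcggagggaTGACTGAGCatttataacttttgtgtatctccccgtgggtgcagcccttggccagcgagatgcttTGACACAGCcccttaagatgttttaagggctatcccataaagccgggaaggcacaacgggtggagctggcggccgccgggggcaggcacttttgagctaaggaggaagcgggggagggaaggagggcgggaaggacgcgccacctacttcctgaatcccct
GSTP1, chr11:67583562-67583811, plus strand: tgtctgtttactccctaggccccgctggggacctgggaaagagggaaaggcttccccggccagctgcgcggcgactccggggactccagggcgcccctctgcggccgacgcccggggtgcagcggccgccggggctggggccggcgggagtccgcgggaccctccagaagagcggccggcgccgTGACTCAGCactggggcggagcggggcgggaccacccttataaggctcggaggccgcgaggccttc

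The GSTA1 and GSTA2 windows were identical at 243 of 250 positions, with the TATA box at the same place, 30 to 25 bases before the start. The antioxidant core was found in 3 of the 8 members with an entry and in 10.9% of all 35116 promoter windows of the same length, searched on both strands. It began 9 bases before the start in GSTA4, 66 bases before it in GSTP1, and 226 and 161 bases before the internal start in GSTO1. The GSTP1 match also holds the AP-1 site TGANTCA, which 6.57% of all windows carried. The core of the xenobiotic response element, GCGTG, bound by the aryl hydrocarbon receptor, was found in GSTZ1 and MGST3, and in 32.2% of all windows. These matches are letters in a window, and binding was not measured. GSTP1 had the densest window of the printed genes in CpG pairs, with 28, against 14 in GSTO1, 11 in GSTA4 and 1 each in GSTA1 and GSTA2, and the median over all windows was 11.

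Across the members, 4 genes were lower in the GLE library by more than counting error (GSTZ1, GSTA4, MGST2 and GSTO1), MGST1 was higher by a margin that depended on the scaling, and GSTA1, GSTK1 and MGST3 had ratios whose intervals included 1. GSTP1 and GSTT2B were at or near 0 in both libraries. No measured member was at least 2-fold higher. Of all measured genes 30.1% had an interval below 1, 27.7% had one above 1, and 9.54% were at least 2-fold higher. Summed over the 10 members there were 2026 GLE counts and 3914 DMSO counts, or 573 CPM in the GLE library against 677 CPM in the DMSO library, a ratio of 0.846 (95% counting interval 0.801 to 0.893). With a single member left out in turn the ratio of the sum ran between 0.756, without MGST1, and 0.899, without GSTO1. In RNA from whole cultures, fewer cells expressing a gene and less RNA per cell cannot be told apart.

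**Figure D1:**
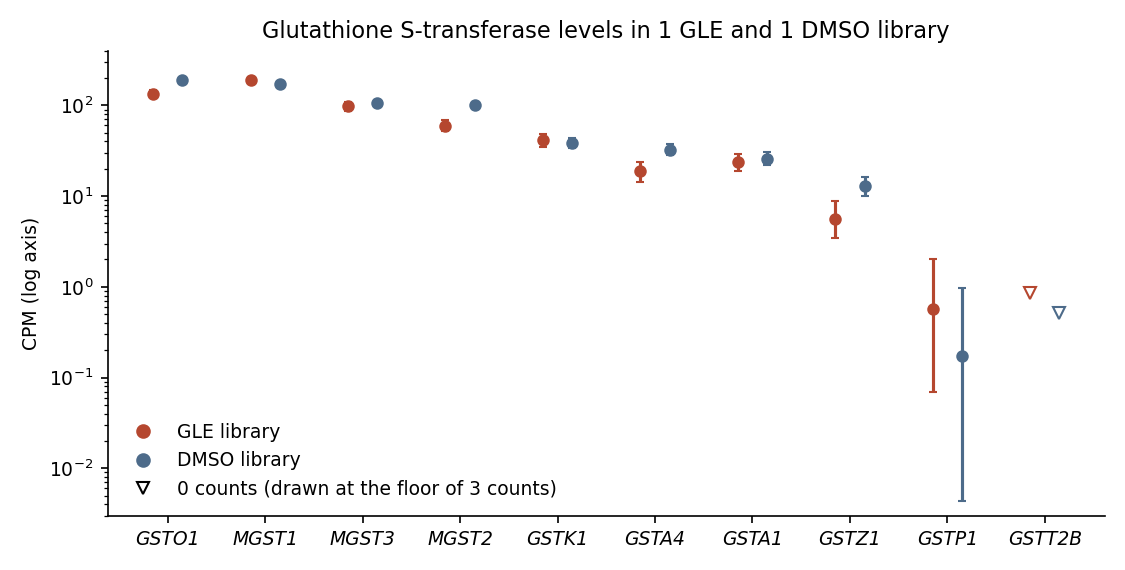
Level of each glutathione S-transferase in CPM, on a log axis, in the GLE library (red, left) and the DMSO library (blue, right), with exact Poisson 95% intervals of the counts; open triangles mark 0 counts, drawn at the floor of 3 counts. MGST1 and GSTO1 stand highest, at 135 to 191 CPM, and GSTP1 and GSTT2B lie at or under the floor.

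The levels themselves spanned a wide range. A 3′-end kit gives a transcript about the same number of tags whatever its length, so levels of different genes are given as CPM without division by length, and differences in capture between genes were not measured. In the GLE library MGST1 was highest at 191 CPM (exact Poisson 95% interval 177 to 206), followed by GSTO1 at 135 (123 to 148), MGST3 at 97.3 (87.3 to 108), MGST2 at 60.0 (52.2 to 68.6) and GSTK1 at 41.6 (35.1 to 48.9). In the DMSO library GSTO1 was highest at 190 CPM (179 to 201), then MGST1 at 172 (162 to 183), MGST3 at 106 (97.7 to 115), MGST2 at 99.7 (91.7 to 108) and GSTK1 at 38.6 (33.7 to 44.0). The top 2 places were thus exchanged between the libraries. In the GLE library the intervals of neighbours among these 5 genes did not overlap. In the DMSO library those of GSTO1 and MGST1 overlapped, as did those of MGST3 and MGST2 and those of GSTK1 and GSTA4. Further down, the intervals of GSTA1 and GSTA4 overlapped in each library, and those of GSTZ1 lay below both.

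GSTZ1, the zeta enzyme (gene at chr14:77321036-77331597, GRCh38.p14), acts as maleylacetoacetate isomerase in tyrosine breakdown. It had 20 counts in the GLE library, or 5.66 CPM (3.46 to 8.74), against 74 counts in the DMSO library, or 12.8 CPM (10.1 to 16.1). The level was low in both libraries, and the intervals did not overlap. Its ratio of GLE over DMSO was 0.442, which is 2.26-fold lower (1.37 to 3.92), and 7.64% of measured genes had a lower log2 ratio. GSTZ1 was the sole member past 2-fold. Among all measured genes 10.5% were at least 2-fold lower and 9.54% at least 2-fold higher, so 1 of 8 measured members past 2-fold lower is near the background. The interval of GSTZ1 reached to 1.37-fold, so it did not lie wholly beyond 2-fold.

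Of the other genes of tyrosine breakdown, those measured had intervals that included 1. HGD, the homogentisate dioxygenase one step before GSTZ1, had a ratio of 0.916 (0.771 to 1.09), and FAH, the fumarylacetoacetase one step after it, had 0.926 (0.723 to 1.18). TAT, the tyrosine aminotransferase that opens the pathway, had 2 GLE and 3 DMSO counts. HPD, the next enzyme, had 12 GLE and 9 DMSO counts, a ratio of 2.18 (0.843 to 5.85). Neither TAT nor HPD reached 30 counts.

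GSTA4 (chr6:52977953-52995284), an alpha enzyme with high activity toward the lipid peroxidation product hydroxynonenal, had 66 GLE counts, or 18.7 CPM (14.4 to 23.7), against 188 DMSO counts, or 32.5 CPM (28.1 to 37.5). Its ratio was 0.574 (0.427 to 0.763), 1.74-fold lower. GSTA1 (chr6:52791371-52803816), the main alpha enzyme of hepatocytes, had 83 GLE counts, or 23.5 CPM (18.7 to 29.1), against 149 DMSO counts, or 25.8 CPM (21.8 to 30.3). Its intervals overlapped, and its ratio of 0.910 (0.687 to 1.20) included 1, so a difference was not detectable with these counts. There were therefore 1.26 GSTA1 counts for each GSTA4 count in the GLE library and 0.793 in the DMSO library. That quotient does not depend on library scaling, and it differed 1.59-fold (exact conditional interval 1.06 to 2.39).

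GSTA2, the third alpha gene with counts, had 40 GLE counts and 63 DMSO counts, a ratio of 1.04 (0.680 to 1.57). GSTA1 and GSTA2 are near copies. In GENCODE release 29, 30.3% of the distinct 50-base words in the last 300 bases of coding GSTA1 transcripts also occurred in transcripts of other genes, most often GSTA2, whereas none of the GSTA2 words did. Part of the GSTA1 counts is uncertain for that reason. GSTA3 and GSTA5 had 0 counts in both libraries, and the pseudogene GSTA7P had 0 GLE and 2 DMSO counts.

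GSTO1, the omega enzyme (chr10:104254173-104267455), reduces dehydroascorbate and mixed disulfides rather than conjugating electrophiles. It had 477 GLE counts, or 135 CPM, against 1097 DMSO counts, or 190 CPM, and with this depth its interval was narrow. The ratio was 0.711 (0.637 to 0.792), 1.41-fold lower, and 25.2% of measured genes had a lower log2 ratio. Its neighbour and paralog GSTO2, on chromosome 10 from 104269184 to 104304950, had 16 GLE counts and 59 DMSO counts, 2.26-fold lower (1.28 to 4.20). The number of GSTO1 counts for each GSTO2 count was 29.8 in the GLE library and 18.6 in the DMSO library, and the interval of this 1.60-fold difference included 1 (0.899 to 3.02).

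GSTK1 (chr7:143263441-143269115), the kappa enzyme of mitochondria and peroxisomes, had 147 GLE counts and 223 DMSO counts. Its ratio was 1.08, with an interval, 0.869 to 1.33, that included 1. GSTP1 (chr11:67583812-67586653), the pi enzyme, had 2 GLE counts, or 0.566 CPM (0.0685 to 2.04), against 1 DMSO count, or 0.173 CPM (0.00438 to 0.964). Both libraries were under the floor of 3 counts, so no fold is given. GSTP1 shared none of its 3′-end words with other genes.

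GSTT2B (chr22:23957414-23961206), a theta enzyme, had 0 counts in both libraries. The exact Poisson intervals of its level reached up to 1.04 CPM in the GLE library and 0.638 CPM in the DMSO library. GSTT2, a near-identical copy of GSTT2B, also had 0 counts in both. As many as 89.7% of the 3′-end words of GSTT2B occurred in GSTT2, and the sources used here do not say how reads that fit both genes were counted. A count of 0 therefore need not mean that neither gene was expressed.

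The 3 membrane-bound enzymes differed among themselves. MGST1 (chr12:16347115-16593331), which conjugates electrophiles and reduces lipid peroxides at the endoplasmic reticulum and outer mitochondrial membrane, had 675 GLE counts, or 191 CPM, against 994 DMSO counts, or 172 CPM. Its ratio was 1.11 (1.00 to 1.22), and the lower end of the interval, 1.00483 before rounding, fell under 1 when libraries were scaled by total counts or by upper quartiles. MGST2 (chr4:139665819-139754618), which can also make cysteinyl leukotrienes, had 212 GLE counts, or 60.0 CPM, against 576 DMSO counts, or 99.7 CPM. It was 1.66-fold lower (1.42 to 1.96). MGST3 (chr1:165631234-165656136), a glutathione-dependent peroxidase, had 344 GLE counts, or 97.3 CPM, against 612 DMSO counts, or 106 CPM, and the interval of its ratio, 0.919 (0.803 to 1.05), included 1 but lay below 1 when libraries were scaled by total counts (0.759 to 0.993).

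**Figure D2:**
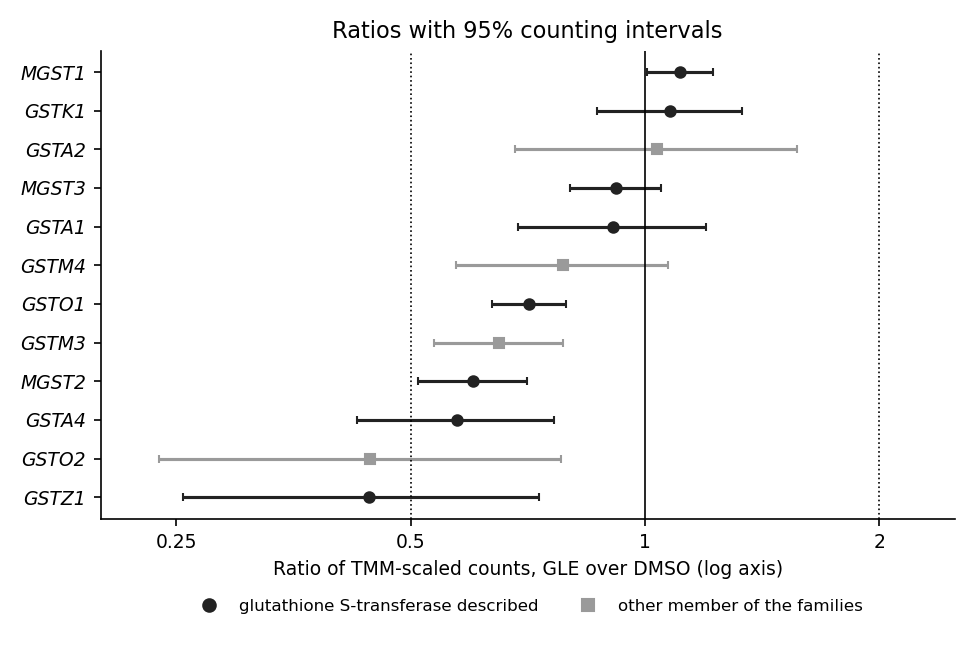
Ratio of TMM-scaled counts, GLE over DMSO, on a log axis, with 95% counting intervals, for the 8 measured members (black circles) and the 4 other measured genes of the families (grey squares); dotted lines mark 2-fold either way. The lowest are GSTZ1 at 0.442 and GSTO2 at 0.443, and the highest is MGST1 at 1.11.

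Quotients between the MGST genes, which do not depend on library scaling, showed the same order. There were 3.18 MGST1 counts for each MGST2 count in the GLE library against 1.73 in the DMSO library, a 1.85-fold difference (1.53 to 2.23). MGST3 counts for each MGST2 count were 1.62 in the GLE library and 1.06 in the DMSO library, a 1.53-fold difference (1.24 to 1.89). MGST1 counts for each MGST3 count were 1.96 in the GLE library and 1.62 in the DMSO library, a 1.21-fold difference (1.02 to 1.43).

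The make-up of the summed counts differed between the libraries. MGST1 held 33.3% of the members' counts in the GLE library (Clopper-Pearson 95% interval 31.3 to 35.4) and 25.4% in the DMSO library (24.0 to 26.8). GSTO1 held 23.5% in the GLE library (21.7 to 25.5) and 28.0% in the DMSO library (26.6 to 29.5). MGST2 held 10.5% in the GLE library (9.16 to 11.9) and 14.7% in the DMSO library (13.6 to 15.9). All 3 MGST genes together took 60.8% in the GLE library (58.6 to 62.9) and 55.7% in the DMSO library (54.2 to 57.3). For MGST3 the intervals of its shares, 17.0% in the GLE library and 15.6% in the DMSO library, overlapped.

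**Figure D3:**
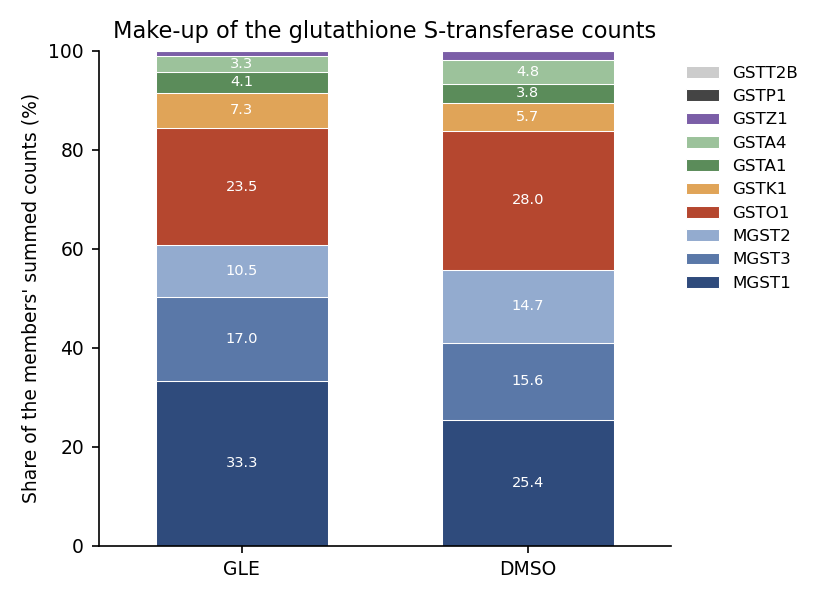
Share of the summed counts of the 10 members, in percent, that each gene held in the GLE library (left, 2026 counts) and in the DMSO library (right, 3914 counts). The MGST1 segment is wider in the GLE library, 33.3% against 25.4%, and the GSTO1, MGST2, GSTA4 and GSTZ1 segments are narrower.

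The members were read against all measured genes. The counting interval lay below 1 for 4 of 8 measured members and for 30.1% of all measured genes, and above 1 for 1 of 8 members and for 27.7% of all measured genes. The median log2 ratio was -0.31 over the 8 members, from -1.15 to 0.15, and -0.04 over all measured genes. The median of the members was -0.13 with a minimum of 100 counts and also with no minimum. At least 1.5-fold lower were GSTZ1, GSTA4 and MGST2, or 3 of 8 members, beside 21.9% of all measured genes. At least 1.5-fold higher were 0 members, beside 19.3% of all measured genes. With 8 genes such counts describe these libraries and are not a test of the family.

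The rest of the families added 17 symbols, and of these GSTA2, GSTM3, GSTM4 and GSTO2 were measured. GSTM3, a mu enzyme, had 155 GLE counts, or 43.8 CPM, against 390 DMSO counts, or 67.5 CPM, and was 1.54-fold lower (1.28 to 1.87). GSTM4 had 63 GLE counts and 131 DMSO counts, a ratio of 0.786 (0.572 to 1.07), and shared 28.2% of its 3′-end words, mostly with GSTM2. Counts were 0 in both libraries for GSTM1, GSTM2, GSTM2P1, GSTM5, GSTT4, HPGDS, LTC4S, ALOX5AP and PTGES, besides GSTA3, GSTA5 and GSTT2. HPGDS makes prostaglandin D, and LTC4S and PTGES are the MAPEG enzymes of leukotriene and prostaglandin E synthesis. As for GSTT2B, a count of 0 need not mean that a gene with near copies was not expressed.

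Genes that lie on or beside the members were counted as well, since the sources used here do not say whether the counting used strand. LMO3, which overlaps MGST1 on chromosome 12, had 1 GLE count and 0 DMSO counts. MAML3, which overlaps MGST2 on chromosome 4, had 18 GLE and 36 DMSO counts. LOC124902497, a long non-coding RNA across GSTO1, had 9 GLE and 0 DMSO counts, and TMEM139-AS1 across GSTK1 had 0 in both. Each of these was small beside the member's own count. The sources used here do not say how reads that fit a member and an overlapping gene were counted. These counts therefore cannot show whether a member lost reads. POMT2, which begins within 1000 bases of GSTZ1, had 88 GLE and 139 DMSO counts. The small nuclear RNA RN7SK, within 1000 bases of the GSTA4 start, had 198 GLE and 17 DMSO counts, and its part in the counts of GSTA4 was not tested.

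Several genes that set the supply of glutathione were higher in the GLE library. Of 17 measured genes for making, recycling and degrading glutathione, 4 passed 2-fold higher and 0 passed 2-fold lower, beside 9.54% and 10.5% of all measured genes. Intervals above 1 were found for 7 and below 1 for 4, beside 27.7% and 30.1% of all measured genes. The 4 were IDH1 at 0.613 (0.558 to 0.673), GGT1 at 0.554, GSS at 0.765 and SLC25A40 at 0.668, named after their values were seen. The median log2 ratio of the list was 0.10. CTH, the cystathionine lyase that releases cysteine, had 133 GLE and 33 DMSO counts, a ratio of 6.59 (4.47 to 9.96). CHAC1, which breaks glutathione down, had a ratio of 5.72. SLC7A11, the cystine carrier, had 3.15, and GCLM, the modifier subunit of the enzyme that starts glutathione synthesis, 2.99. The catalytic subunit GCLC, named after its value was seen, had 179 GLE and 282 DMSO counts, a ratio of 1.04 (0.855 to 1.26).

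Most measured genes for the export and further processing of glutathione conjugates were lower. Of 9 measured, 2 passed 2-fold lower and 0 passed 2-fold higher, beside 10.5% and 9.54% of all measured genes. Intervals below 1 were found for 7 and intervals above 1 for 0, beside 30.1% and 27.7% of all measured genes. Those of ABCC1, at 1.17 (0.824 to 1.65), and LAP3, at 1.05 (0.840 to 1.32), both named after their values were seen, included 1. The list had a median log2 ratio of -0.77. GGT1, at 0.554, was counted both in this list and among the supply genes. ABCC2, the canalicular conjugate pump, had 328 GLE and 1557 DMSO counts, a ratio of 0.344. ABCC3, its basolateral counterpart, had 125 GLE and 395 DMSO counts, 1.93-fold lower (1.58 to 2.38). NAT8, which acetylates cysteine conjugates to mercapturates, had 26 GLE and 99 DMSO counts, 2.33-fold lower (1.5 to 3.74). ANPEP, a peptidase that trims the conjugates, had 170 GLE and 462 DMSO counts, 1.66-fold lower (1.39 to 1.99). DPEP1, ACY1 and ACY3 were at or under the floor in both libraries.

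Other enzymes that use glutathione lay on both sides of 1. Of 15 measured, 1 passed 2-fold higher and 1 passed 2-fold lower, with a median log2 ratio of -0.05. These counts are no higher than the shares over all measured genes, 9.54% higher and 10.5% lower. GPX7, a peroxidase of the endoplasmic reticulum, had 7 GLE and 59 DMSO counts, 5.16-fold lower (2.35 to 13.4). GLRX2, a mitochondrial glutaredoxin, had 150 GLE and 122 DMSO counts, a ratio of 2.01 (1.57 to 2.57). GPX2 had 363 GLE and 965 DMSO counts, 1.63-fold lower (1.44 to 1.84). HAGH, the second enzyme of the glyoxalase pathway, had 98 GLE and 256 DMSO counts, 1.60-fold lower (1.26 to 2.04).

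**Figure D4:**
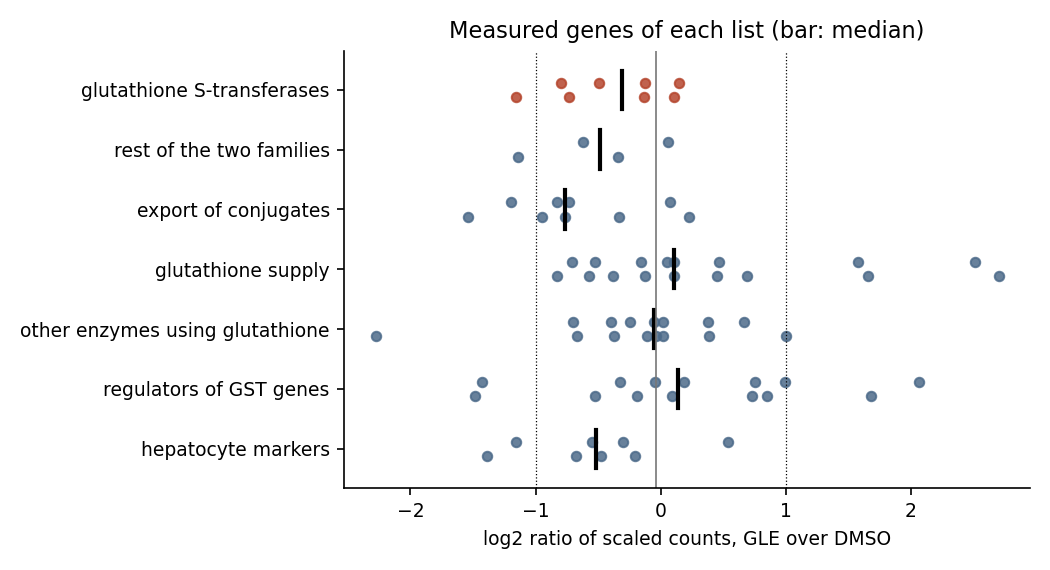
Log2 ratio of scaled counts, GLE over DMSO, for each measured gene of the glutathione S-transferases (red) and of the related lists (blue), with the list median as a black bar, the median of all measured genes as a grey line and dotted lines at 2-fold. The members lie between -1.15 and 0.15, the export genes have a median of -0.77, and 4 supply genes lie beyond 2-fold higher.

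Regulators known to act on glutathione S-transferase genes were split. The list held transcription factors and KEAP1, which is not a transcription factor but a protein that restrains NRF2. Of 14 measured, 2 passed 2-fold higher and 2 passed 2-fold lower, and the median log2 ratio was 0.14. These counts are near the shares over all measured genes, 9.54% higher and 10.5% lower. With DESeq2 scaling, median centring or thinning, 3 genes passed 2-fold higher. At 1.5-fold, 6 were higher and 2 lower, beside 19.3% and 21.9% of all measured genes. Intervals lay above 1 for 7 and below 1 for 4, beside 27.7% and 30.1% of all measured genes. KEAP1, named after its value was seen, was among those 4, at 0.693 (0.591 to 0.811). MAFG, a small MAF partner of NRF2, had 867 GLE and 337 DMSO counts, a ratio of 4.20 (3.70 to 4.78), and the AP-1 subunit JUN had a ratio of 3.21. The hepatocyte factor CEBPA had 342 GLE and 1565 DMSO counts, a ratio of 0.357. HNF4A, a further hepatocyte factor, had 197 GLE and 866 DMSO counts, a ratio of 0.372. Of 8 hepatocyte markers, 7 had intervals below 1 and SERPINA1 had one above 1, beside 30.1% and 27.7% of all measured genes. At least 2-fold lower were 2 of these markers, beside 10.5% of all measured genes. The median log2 ratio of the markers was -0.51. The part of these hepatocyte genes in the levels of the glutathione S-transferases was not tested.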

How the data were processed

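Per the labels, 3′-end messenger RNA libraries were made from Hep3B cells, 1 per group. The deposited values are raw counts of reads for each gene symbol, not normalized. The submitters' processing notes name fastp, STAR, HTSeq and GRCh38. Not stated there are versions, annotation, strand setting and the treatment of reads that fit several genes.

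Counts were scaled by TMM factors from edgeR 4.0.16 (R 4.3.3), 0.972 for GLE and 1.03 for DMSO. CPM used the effective library sizes. Ratios are GLE over DMSO, and their intervals come from exact Clopper-Pearson 95% limits on the share of a gene's reads in the GLE library. Without molecular identifiers reads are not independent molecules, so intervals and floors cover counting error only. Log2 ratios had 0.5 added to each count. The computation was tested on simulated independent Poisson counts with the library scaling given, which does not test that independence.

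The members and lists were chosen with earlier results of these data known. Named genes were all members, all other symbols of the families, genes beside the members, up to 4 genes of each of 6 lists by the interval bound nearest to 1, and whole lists of 5 or fewer. Some genes of these lists are not reported here. Gene positions are from RefSeq. Alternatives covered scaling (DESeq2 1.42.0 among them), depth and count minimums. Python 3.11.15, SciPy 1.17.1 and matplotlib 3.10.9 were used.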

Additional observations from a re-analysis of the deposited data

How the results depend on the processing

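Under 5 other scalings and with the DMSO library thinned, the ratios of the members whose interval excluded 1 kept their side of 1, from 0.418 to 0.450 for GSTZ1, 0.542 to 0.628 for GSTA4, 0.569 to 0.613 for MGST2, 0.672 to 0.735 for GSTO1 and 1.05 to 1.13 for MGST1. Of 271 values recomputed, 253 stayed close to the value reported and 18 moved. Close meant a ratio inside the reported counting interval, or a count equal to the reported one or within 1.5-fold of it. For a median log2 ratio it meant a change within the typical half-width of its genes' intervals. These limits are wide, and the change of the members' median from -0.31 to -0.13 counted as close. Scaling by total counts, which shifted every log2 ratio by -0.08, gave a ratio of 0.800 for the summed counts of the members. The count of members with an interval above 1 became 0 with total counts and with upper-quartile factors, and the count with an interval below 1 became 5 with total counts, MGST3 being added. The count at least 2-fold lower became 0 with a minimum of 100 counts, 0 when the whole interval had to lie beyond 2-fold, and 3 at a fold of 1.5. With no minimum beyond 1 count, 1 member, GSTP1 with 2 against 1 counts, passed 2-fold higher.

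Among the lists, total counts and upper-quartile factors each left 0 of the other glutathione-using enzymes at least 2-fold higher. With a minimum of 100 counts, 0 of these enzymes, 0 of the other family members and 0 of the tyrosine breakdown genes were at least 2-fold lower, and thinning also left 0 of the other family members. Without a minimum, 2 of these enzymes and 2 of the other family members were at least 2-fold lower, and 1 conjugate export gene was at least 2-fold higher. In tyrosine breakdown 1 gene, HPD, was at least 2-fold higher with a minimum of 10 and with none. Fewer or more genes passing the minimum account for the changes made by the minimum. Depth allowed no fold for GSTP1 and GSTT2B and left wide intervals for GSTZ1, GSTO2 and GSTA2. No paired analysis was possible because each group had 1 library.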
